A study of Homo sapiens with 9 samples.

Results

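PBX2, PBX3, PBX4, MEIS1, MEIS2, MEIS3, PKNOX1 and PKNOX2 encode homeodomain transcription factors that bind DNA together with HOX proteins. These 8 genes were taken by name from the 58735 genes listed in each count table, and all 8 were among the 18319 genes tested. The tables place each of them in the homeobox family of transcription factors. The rows were taken by gene name, but the family itself was chosen by its fold changes against DMSO in these same libraries. Its differences from DMSO are therefore descriptions; the p-values come from a fit adjusted over all genes, and none is given for the family as a whole.

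Polyadenylated RNA was sequenced from HEK293T, an established line derived from human embryonic kidney and expressing SV40 large T antigen. The 3 groups of 3 libraries were cells given dTAG47, the compound used to deplete PRPS1, cells given AGB1, the compound used to deplete PRPSAP1, and cells given DMSO. Each compound was used at 500 nM, and RNA was taken after 24 h. All 3 groups, DMSO included, carry PRPS1 fused to HA and dTAG and PRPSAP1 fused to V5 and BromoTag, so both tags are shared by treated and control cells. Both proteins belong to the complex that makes phosphoribosyl pyrophosphate, the ribose donor of nucleotide synthesis. The labels do not say whether a group's libraries came from separate cultures, nor whether the line is 1 clone; the spread behind the p-values is that between libraries and may be technical.

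Proteins of the PBX, MEIS and PKNOX groups share the TALE homeodomain, which has a loop extension between its first helices. PBX proteins pair with HOX proteins on DNA and sharpen their choice of sites. MEIS and PKNOX proteins, the second also called PREP, bind PBX through their amino-terminal regions, which favours the nuclear location of PBX, and can join HOX and PBX in larger complexes. The group is best known from the patterning of hindbrain and limb, and MEIS1 and PBX3 also from leukaemia.

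The coding sequence around the loop is shown because the loop defines the family, and because it shows how far the members differ there. Identity was compared over no other stretch. The loop codons themselves do not separate the groups, and those of PBX3 and PKNOX2 are identical. Each line gives 60 coding bases from GENCODE 29, read 5′ to 3′ on the coding strand, with the loop codons in capitals.
PBX2: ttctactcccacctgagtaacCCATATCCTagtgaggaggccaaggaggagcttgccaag
PBX3: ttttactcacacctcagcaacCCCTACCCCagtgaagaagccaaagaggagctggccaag
PBX4: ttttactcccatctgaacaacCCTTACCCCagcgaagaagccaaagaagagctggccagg
MEIS1: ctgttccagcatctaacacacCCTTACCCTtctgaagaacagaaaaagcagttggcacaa
MEIS2: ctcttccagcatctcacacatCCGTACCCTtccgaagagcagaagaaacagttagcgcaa
MEIS3: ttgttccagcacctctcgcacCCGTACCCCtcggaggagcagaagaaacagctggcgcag
PKNOX1: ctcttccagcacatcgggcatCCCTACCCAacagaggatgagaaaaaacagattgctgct
PKNOX2: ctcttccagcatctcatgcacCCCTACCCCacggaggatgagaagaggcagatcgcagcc

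Over these 60 bases, identity within the PBX group ran from 76.7% to 86.7% and was at most 83.3% within the MEIS group, and PKNOX1 and PKNOX2 were 78.3% identical. Between MEIS and PKNOX genes identity was 63.3% to 71.7%, and between PBX and MEIS genes 51.7% to 60.0%. The PBX stretches each lie within a single coding exon on GRCh38, at chr6:32187671-32187730 (minus strand) for PBX2, chr9:125935524-125935583 (plus strand) for PBX3 and chr19:19569473-19569532 (minus strand) for PBX4. In all 5 MEIS and PKNOX genes an exon junction follows base 18 of the stretch, just before the loop. The intron at that junction measured 35648 bases in MEIS1, 86413 in MEIS2, 1670 in MEIS3, 3439 in PKNOX1 and 17146 in PKNOX2.

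On GRCh38 the PBX genes lie on 3 chromosomes. PBX2 (ENSG00000204304) is at chr6:32184741-32190186 on the minus strand, PBX3 (ENSG00000167081) at chr9:125747345-125967377 on the plus strand and PBX4 (ENSG00000105717) at chr19:19561707-19618916 on the minus strand. MEIS1 (ENSG00000143995) is at chr2:66433452-66573869 on the plus strand, MEIS2 (ENSG00000134138) at chr15:36889204-37101299 on the minus strand and MEIS3 (ENSG00000105419) at chr19:47403124-47419523 on the minus strand. PKNOX1 (ENSG00000160199) is at chr21:42974510-43033931 and PKNOX2 (ENSG00000165495) at chr11:125164687-125433389, both on the plus strand. PBX4 and MEIS3 thus share chromosome 19, on the same strand and far apart.

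Reads shared with other genes were a small matter for 7 of the 8. None of the 75-base words in the longest transcript of PBX3, PBX4, MEIS1, MEIS2, PKNOX1 or PKNOX2 occurred in transcripts of another gene. In MEIS3 the share was 0.75%. In PBX2 it was 29.3%, shared with the pseudogene PBX2P1 and with the noncoding transcript AL662884.1 inside its own locus. PBX2P1 held 2 to 20 counts per library and AL662884.1 at most 1, against 1703 to 2608 for PBX2, and adding both to PBX2 gave the same fold changes to 2 decimals (−0.17 with dTAG47 and −0.21 with AGB1). Antisense genes overlap exons of MEIS1 and MEIS2 over at most 4.01% of their exonic bases and held at most 17 counts in a library.

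Library totals ran from 27964128 to 44803380 counts, and a count of 3 corresponded to between 0.0670 and 0.107 CPM, counts scaled to the effective library size. Messenger RNA of the tagged genes cannot check a depletion of protein; PRPS1 stood at 106 to 113 CPM with dTAG47, 109 to 110 CPM with AGB1 and 99.1 to 106 CPM in DMSO, and PRPSAP1 at 26.8 to 32.1, 27.2 to 30.2 and 23.5 to 36.6 CPM in the same order of groups. Libraries differed in composition. Across 11435 genes (not replicates), the correlation of a library's deviation from the gene mean with GC content ranged as Spearman's rho from −0.329 to 0.623 with dTAG47 (highest in dTAG47 1), from −0.0269 to 0.0497 with AGB1 and from −0.378 to 0.271 in DMSO (lowest in DMSO 1). The labels call the cells epithelial. KRT8 and KRT18 were present in every library, with at least 722 and 1470 counts, while KRT19 had at most 3 counts. Of 6 neuronal markers, NEFL and NEFM were also abundant. The 6 summed to 309 to 342 CPM with dTAG47, 340 to 355 CPM with AGB1 and 293 to 318 CPM in DMSO. This sum, mostly NEFM and NEFL, lay wholly above DMSO in the AGB1 libraries. The other markers were mixed. Mean SNAP25 and RBFOX3 were lower with AGB1 (3.06 and 2.49 CPM) than in DMSO (3.98 and 3.46 CPM). Mean SYP and TUBB3 were higher with AGB1 (23.0 and 0.794 CPM) than in DMSO (22.6 and 0.598 CPM). The 4 blood markers summed to at most 5.86 CPM and the 3 endothelial markers to at most 0.636 CPM in any library, and the 7 fibroblast markers to 27.5 to 34.1 CPM with dTAG47, 23.4 to 27.4 CPM with AGB1 and 28.3 to 33.1 CPM in DMSO, mostly COL1A1, with AGB1 wholly below DMSO. The part of these markers and of GC composition in the differences below was not tested, except that GC-adjusted fits are given.

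All 8 genes were transcribed in these cells, over a wide range. In bulk RNA, fewer cells expressing a gene and less RNA per cell cannot be told apart. Levels between genes are given as CPM per kilobase of exon, as mean and SD (n = 3) per group. PBX2, a broadly expressed PBX gene, was the highest, at 14.1 ± 0.685 with dTAG47, 13.8 ± 0.272 with AGB1 and 15.9 ± 0.468 in DMSO, and stood at percentile 80.4 of the tested genes. PBX3 followed at 4.97 ± 0.594 with dTAG47, 4.90 ± 0.123 with AGB1 and 6.56 ± 0.0525 in DMSO. In DMSO the order went on with PKNOX1 (4.13 ± 0.0485), MEIS3 (3.998 ± 0.554), MEIS2 (2.86 ± 0.121), PKNOX2 (2.46 ± 0.126), MEIS1 (1.47 ± 0.270) and PBX4 (1.23 ± 0.495).

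Neighbours in that order were not all separate. In every group the libraries of PBX2 lay above those of PBX3, those of PBX3 above PKNOX1, those of MEIS3 above MEIS2 and those of PKNOX2 above MEIS1. PKNOX1 and MEIS3 overlapped with dTAG47 and in DMSO, and MEIS1 and PBX4 overlapped in all 3 groups. The order of MEIS2 and PKNOX2 differed between groups: PKNOX2 lay above MEIS2 in all 3 libraries with dTAG47, overlapped it with AGB1, and lay below it in all 3 libraries in DMSO.

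**Figure D1:**
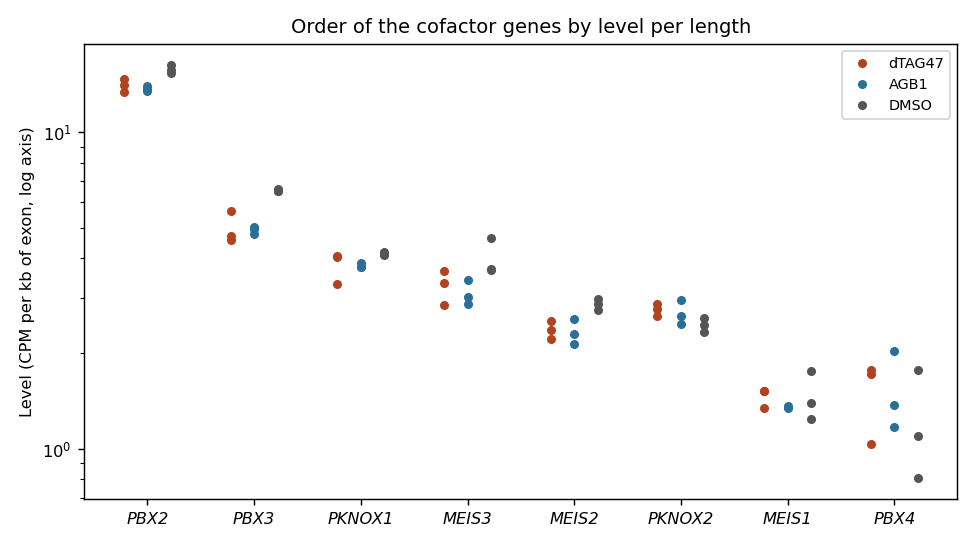
Level of each cofactor gene in CPM per kilobase of exon (vertical log axis), one point per library, with dTAG47, AGB1 and DMSO side by side for each gene. PBX2 stands highest, MEIS1 and PBX4 lowest, and MEIS2 and PKNOX2 lie close together with their order differing between dTAG47 and DMSO.

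PBX3, a PBX gene known from haematopoiesis and leukaemia, was lower in every treated library than in any DMSO library. It measured 21.2, 25.6 and 20.7 CPM with dTAG47 and 22.4, 21.6 and 22.7 CPM with AGB1, against 29.96, 29.5 and 29.6 CPM in DMSO. The DMSO libraries lay within 1 CPM of each other, while dTAG47 2 stood above the other libraries of its group. The log2 fold change was −0.40 with dTAG47 (SE 0.10, 95% interval −0.60 to −0.19), with an edgeR adjusted p of 0.182. It was −0.42 with AGB1 (SE 0.10, −0.63 to −0.21), with an edgeR adjusted p of 0.130. Neither passed the threshold of 0.05 in edgeR's quasi-likelihood test, although by unadjusted p PBX3 ranked 48 of 18319 genes with dTAG47 and 41 with AGB1. DESeq2 called PBX3 in both (adjusted p = 0.0348 with dTAG47 and 0.0133 with AGB1). With the GC trend of the libraries removed, edgeR called it with AGB1 (adjusted p = 0.0491) and not with dTAG47 (adjusted p = 0.106).

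PBX2 was also lower in every treated library, by a smaller amount. It stood at 61.4, 58.3 and 64.2 CPM with dTAG47 and 59.6, 61.0 and 58.6 CPM with AGB1, against 71.1, 67.1 and 68.6 CPM in DMSO. No treated library reached the lowest DMSO library. The log2 fold change was −0.17 with dTAG47 (SE 0.07, edgeR adjusted p = 0.619) and −0.21 with AGB1 (SE 0.07, edgeR adjusted p = 0.388). PBX4, whose product lacks part of the carboxy-terminal region of other PBX proteins, had the fewest counts of the 8, 68 to 192 per library. It measured 4.41, 2.64 and 4.52 CPM with dTAG47, 5.203, 3.51 and 2.98 CPM with AGB1 and 2.06, 2.80 and 4.53 CPM in DMSO, and the groups overlapped. Its 95% intervals, −0.28 to 0.85 with dTAG47 and −0.25 to 0.88 with AGB1 on the log2 scale, leave both directions possible. Without DMSO 3 its log2 fold changes were 0.66 and 0.69.

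**Figure D2:**
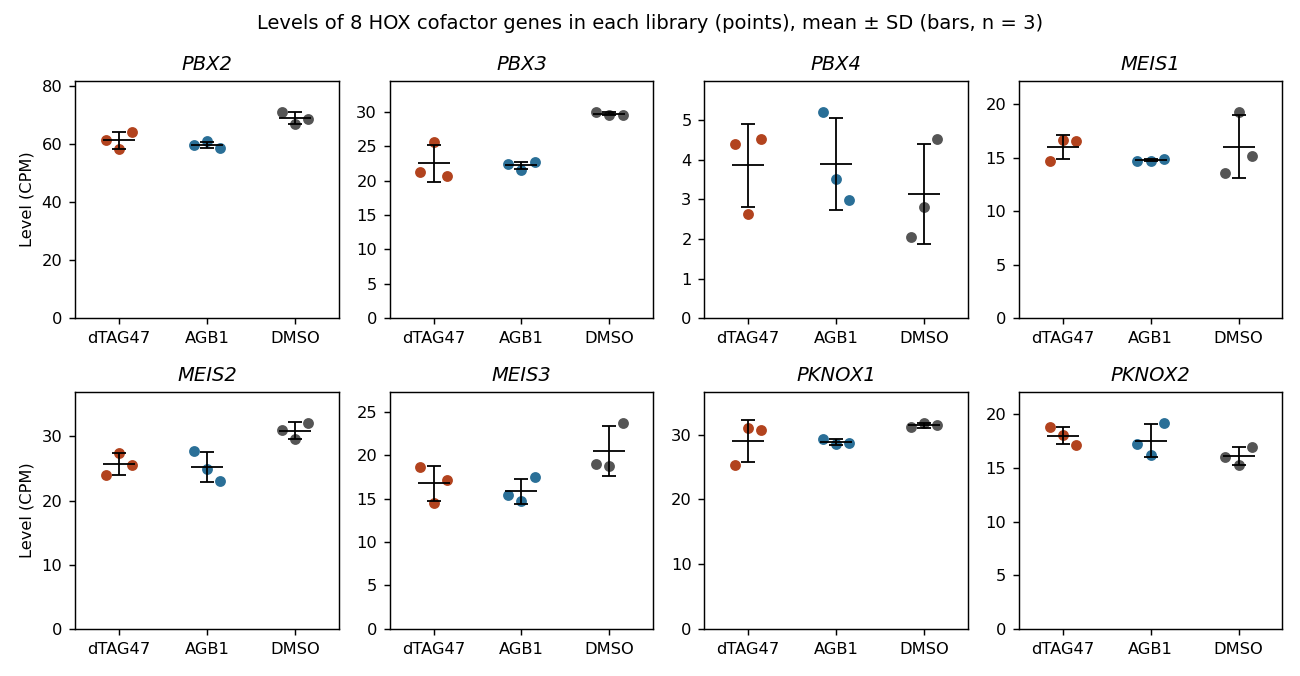
Level of each gene in CPM (vertical axis from 0, scaled per gene), one point per library, with the mean and SD of 3 libraries per group as bars. PBX2, PBX3, MEIS2, MEIS3 and PKNOX1 lie lower in all treated libraries than in DMSO, while MEIS1 and PBX4 overlap.

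Among the MEIS genes, MEIS2 and MEIS3 were lower in all treated libraries, and MEIS1 overlapped between groups. MEIS2, a regulator of neural and limb development, measured 23.9, 27.4 and 25.6 CPM with dTAG47 and 27.7, 24.9 and 23.1 CPM with AGB1, against 30.9, 29.5 and 32.1 CPM in DMSO. Every treated library lay below every DMSO library. Its log2 fold change was −0.27 with dTAG47 (SE 0.10, edgeR adjusted p = 0.531) and −0.29 with AGB1 (SE 0.10, edgeR adjusted p = 0.378).

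MEIS3, a relative studied mainly in hindbrain patterning, measured 18.6, 14.5 and 17.1 CPM with dTAG47 and 15.4, 14.7 and 17.5 CPM with AGB1, against 18.9, 18.7 and 23.8 CPM in DMSO. The groups did not overlap, but the dTAG47 and DMSO libraries nearest to each other, at 18.6 and 18.7 CPM, were almost level. The log2 fold change was −0.29 with dTAG47 (SE 0.12, edgeR adjusted p = 0.627) and −0.37 with AGB1 (SE 0.13, edgeR adjusted p = 0.373). Without DMSO 3, the highest library, the values were −0.17 with dTAG47 and −0.25 with AGB1. MEIS1, the member best known as a partner of HOXA9 in leukaemia, measured 14.7, 16.7 and 16.6 CPM with dTAG47, 14.7, 14.7 and 14.9 CPM with AGB1 and 13.6, 19.3 and 15.2 CPM in DMSO. DMSO held both the lowest and the highest of these values, and the log2 fold changes were −0.0015 for dTAG47, whose 95% interval ran from −0.26 to 0.26, and −0.12 for AGB1, whose interval ran from −0.38 to 0.15. Without DMSO 2 they were 0.15 and 0.0372, both above 0.

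Of the PKNOX genes, PKNOX1 was slightly lower and PKNOX2 slightly higher with the compounds, and neither passed the test. PKNOX1, also called PREP1, measured 25.3, 31.0 and 30.8 CPM with dTAG47 and 29.4, 28.5 and 28.7 CPM with AGB1, against 31.1, 31.9 and 31.4 CPM in DMSO. All treated libraries lay below DMSO, 2 of those with dTAG47 by less than 1 CPM. The log2 fold change was −0.12 with dTAG47 (SE 0.09, edgeR adjusted p = 0.847) and −0.12 with AGB1 (SE 0.10, edgeR adjusted p = 0.804). Without dTAG47 1, the value for dTAG47 was −0.03. PKNOX2, its paralogue, measured 18.8, 18.1 and 17.2 CPM with dTAG47 and 17.2, 16.2 and 19.2 CPM with AGB1, against 16.1, 15.3 and 16.9 CPM in DMSO. Its dTAG47 libraries lay above DMSO and its AGB1 libraries overlapped DMSO, with log2 fold changes of 0.16 (SE 0.11, edgeR adjusted p = 0.808) and 0.12 (SE 0.11, edgeR adjusted p = 0.846).

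**Figure D3:**
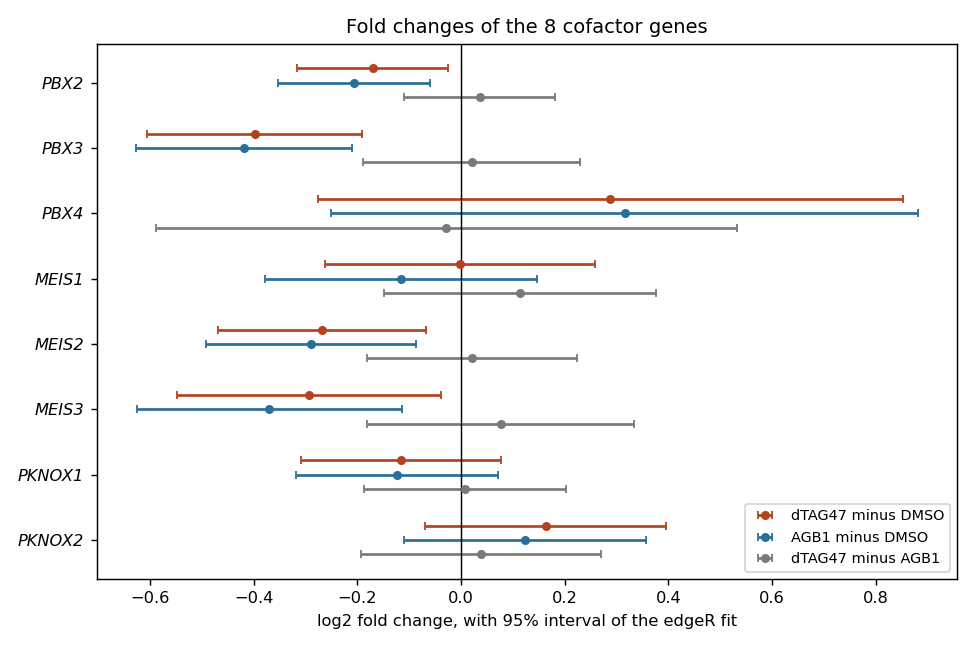
Log2 fold change of each cofactor gene (horizontal axis) with its 95% interval from the edgeR fit, with each compound set against DMSO and dTAG47 set against AGB1. The intervals of PBX2, PBX3, MEIS2 and MEIS3 lie below 0 for both compounds against DMSO, and all intervals between the compounds span 0.

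Counted as a family, 0 of the 8 genes passed the threshold with dTAG47 and 0 with AGB1, where 0.06% and 0.104% of all tested genes were called by edgeR in either direction. At an unadjusted p under 0.05, 4 of 8 were lower with dTAG47 and 4 of 8 with AGB1 (PBX2, PBX3, MEIS2 and MEIS3 each time), against 3.62% and 4.21% of all tested genes. In 5 of 8 the treated libraries lay wholly below DMSO, with dTAG47 and with AGB1 alike, against 5.82% and 6.75% of all tested genes. The dTAG47 libraries lay wholly above DMSO in 1 of 8, PKNOX2, and the AGB1 libraries in 0 of 8, against 5.8% and 6.56% of all tested genes. Fold changes were negative in 6 of 8 with each compound, against 50.3% of all tested genes in both comparisons. These differences are what the family was chosen for, and nothing is read from the counts. The median log2 fold change of the 8 genes was −0.14 with dTAG47 and −0.17 with AGB1, where the median of all tested genes was −0.000974 and −0.000924. Both comparisons use the same DMSO libraries, so their likeness is not independent evidence.

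Summed over the 8 genes, the level was 193 ± 4.21 CPM with dTAG47, 188 ± 3.30 CPM with AGB1 and 217 ± 4.75 CPM in DMSO (SD, n = 3 each). The highest treated library, at 197 CPM, lay below the lowest DMSO library, at 214 CPM. The PBX genes gave 87.6 ± 1.55 CPM with dTAG47, 85.8 ± 1.502 CPM with AGB1 and 102 ± 2.02 CPM in DMSO, and the MEIS genes 58.4 ± 1.02, 55.9 ± 1.78 and 67.4 ± 3.83 CPM in the same order of groups. The PKNOX genes, at 47.0 ± 2.59 CPM with dTAG47, 46.4 ± 1.61 CPM with AGB1 and 47.6 ± 0.695 CPM in DMSO, overlapped. Within the sum, the share of PBX3 was 11.7% ± 1.38 with dTAG47, 11.8% ± 0.242 with AGB1 and 13.7% ± 0.364 in DMSO, and that of PKNOX2 9.34% ± 0.617, 9.32% ± 0.813 and 7.42% ± 0.256. The share of PBX2 stayed between 31.7% and 31.8% in the group means.

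Between the compounds, 0 of 8 genes passed the threshold in edgeR, 0 had an unadjusted p under 0.05, and 0 were called by DESeq2 or limma-voom. Of all tested genes, 0% passed in edgeR and 4.02% had an unadjusted p under 0.05. The log2 difference of dTAG47 minus AGB1 was 0.02 for PBX3 (95% interval −0.19 to 0.23), 0.04 for PBX2 (−0.11 to 0.18), 0.02 for MEIS2 (−0.18 to 0.22) and 0.08 for MEIS3 (−0.18 to 0.33). The intervals of PBX3 and MEIS2 end short of the size of their fold changes against DMSO, while those of PBX2 and MEIS3 reach the size of their fold change with dTAG47. A difference of that size in PBX2 and MEIS3, with dTAG47 the higher, lay inside these intervals and was not excluded. The same held for the other genes, whose intervals also reach the size of their fold changes against DMSO. These intervals were −0.59 to 0.53 for PBX4, −0.15 to 0.38 for MEIS1, −0.19 to 0.20 for PKNOX1 and −0.19 to 0.27 for PKNOX2. The libraries of the 2 compounds overlapped in all 8 genes, where 5.1% of all tested genes lay wholly lower and 5.35% wholly higher with dTAG47 than with AGB1.

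Taking both compounds together, a comparison chosen after these values had been seen, PBX3 fell. Its level was 22.3 ± 1.74 CPM in the 6 treated libraries and 29.7 ± 0.238 CPM in the 3 DMSO libraries, which is −0.41 on the log2 scale (SE 0.09) at an edgeR adjusted p of 0.0356 and was lower in 6 of 6 treated libraries. It was the one call among the 8 genes, where 0.126% of all tested genes were called lower. The call ended with each of 8 libraries left out in turn (adjusted p from 0.0551 without DMSO 3 to 0.201 without DMSO 2) and held without dTAG47 2 (0.0117). It also ended without DMSO 1 and dTAG47 1 together, the extremes of GC composition (0.106). The fold change itself stayed between −0.46 and −0.38 in these fits. The other members did not pass, with edgeR adjusted p of 0.236 for MEIS2 (log2 fold change −0.28), 0.281 for MEIS3 (−0.33) and 0.289 for PBX2 (−0.19). At an unadjusted p under 0.05, 4 of 8 were lower, against 4.58% of all tested genes. In 5 of 8 genes all 6 treated libraries lay below DMSO, against 2.2% of all tested genes.

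**Figure D4:**
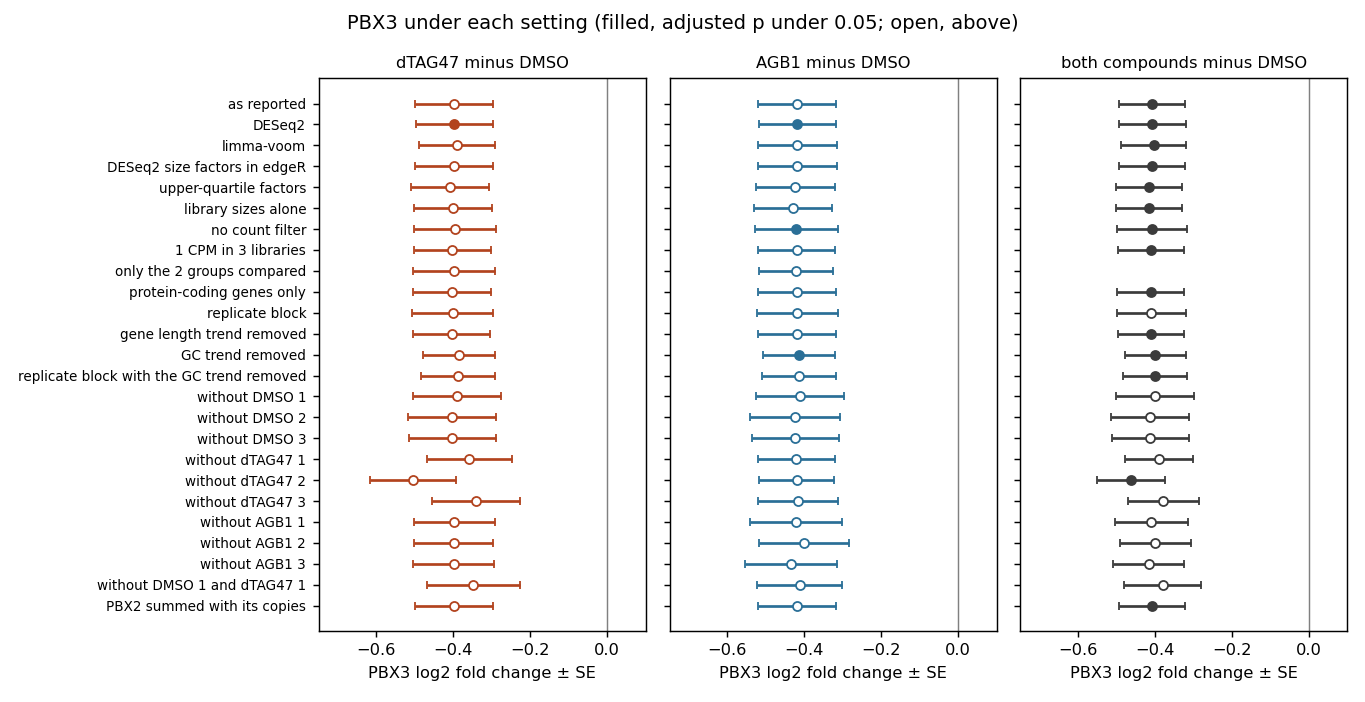
Log2 fold change of PBX3 with its SE (horizontal axis) under each analysis setting (rows), for each compound and for both together against DMSO. Filled points had an adjusted p under 0.05 and open points did not. All points lie between −0.505 and −0.341.

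The HOX genes encode the partners of these cofactors. Of 37 HOX genes tested out of 39 listed, 36 had a negative fold change with dTAG47 (median −0.28) and 33 with AGB1 (median −0.31). Of all tested genes, 50.3% were negative in each comparison. In edgeR 0 passed with dTAG47, where 13 had an unadjusted p under 0.05, all 13 lower, against 3.62% of all tested genes. With AGB1 15 had such a p, all 15 lower, against 4.21% of all tested genes. With AGB1 HOXB9 fell by 0.32 on the log2 scale (SE 0.06, edgeR adjusted p = 0.0162), to 126 ± 7.69 CPM with AGB1, against 158 ± 4.31 CPM in DMSO. HOXB3 fell by 0.53 (SE 0.11, edgeR adjusted p = 0.0419), to 17.2 ± 0.696 CPM with AGB1, against 24.9 ± 2.65 CPM in DMSO, in a cluster where genes overlap on both strands. HOXB9 lost its call without DMSO 2, AGB1 2 or AGB1 3, and HOXB3 in 5 of 9 such fits (without DMSO 2, dTAG47 3 or any 1 AGB1 library), with adjusted p up to 0.186 and 0.347. HOXB3 also lost it with limma-voom (adjusted p = 0.0622) and under the replicate block (0.0835). With both compounds HOXB9 and HOXB3 passed again, as did HOXC4 (log2 fold change −0.57, edgeR adjusted p = 0.0404) and HOXC9 (−0.51, edgeR adjusted p = 0.0457). With single libraries left out, HOXB9 lost this call only without DMSO 2 (adjusted p = 0.109), while HOXB3 and HOXC4 lost it in 6 of 9 fits each and HOXC9 in 7 of 9. HOXB3 and HOXC9 also lost it under the replicate block (0.0674 and 0.0872). The 127 homeobox genes tested outside the 8, as annotated, include HOX genes and are not a group apart from them. Their median was −0.11 with dTAG47 and −0.15 with AGB1. Libraries lay wholly below DMSO in 24 and 30 of them (18.9% and 23.6%), where the HOX list alone had 16 and 18 such genes. Of all tested genes, 5.82% and 6.75% lay so. For the 8 cofactor genes the medians were −0.14 and −0.17.

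Other genes of the pathway were counted by list. Of all tested genes, 50.3% were negative with dTAG47 and 50.3% with AGB1, the share to set beside each list. Of 11 further TALE genes, 7 were tested, 5 were negative with dTAG47 (median −0.02) and 6 with AGB1 (median −0.23), and 0 passed in either, with an unadjusted p under 0.05 in 0 and 1 of them. Of 8 partners and regulators, 0 passed in either, and 4 were negative with dTAG47 and 6 with AGB1. Among them PBXIP1 encodes a protein that binds PBX and hinders its binding to DNA. PBXIP1 was at 16.9 ± 0.882 CPM with dTAG47, 14.9 ± 0.429 CPM with AGB1 and 17.8 ± 1.54 CPM in DMSO. Its libraries overlapped DMSO with dTAG47 and lay below it with AGB1, as did 6.75% of all tested genes with AGB1. KLF4 went the other way, at 8.69 ± 0.621 CPM with dTAG47, 8.79 ± 0.851 CPM with AGB1 and 6.46 ± 0.935 CPM in DMSO. The KLF4 libraries lay above DMSO with each compound, as did 5.8% of all tested genes with dTAG47 and 6.56% with AGB1. Genes of retinoic acid metabolism and its receptors were included because retinoic acid induces MEIS and PBX genes in embryonic cells. Of 15 tested, 13 were negative with dTAG47 and 10 with AGB1 (median −0.19 each), against 50.3% of all tested genes in each comparison. ALDH1A2, which makes retinoic acid, fell by 0.37 with dTAG47 (SE 0.07, edgeR adjusted p = 0.0337), and DHRS3, which reduces retinaldehyde, fell by 0.67 with AGB1 (SE 0.11, edgeR adjusted p = 0.00327). The call of DHRS3 held with each library left out in turn (adjusted p up to 0.0494), while that of ALDH1A2 was lost in 8 of 9 such fits and held only without AGB1 2 (adjusted p from 0.0465 to 0.223). ALDH1A2 also lost its call under the replicate block (0.0749) and with only the 2 groups fitted (0.0917). These were the only calls of this list, 1 with each compound. With both compounds 2 of the 15 passed, ALDH1A2 and DHRS3, both lower, against 0.126% of all tested genes. With single libraries left out, DHRS3 kept this call in 9 of 9 fits and ALDH1A2 in 3 of 9. Fold changes in the list ran from −0.81 to 0.50 with dTAG47 and from −0.67 to 0.24 with AGB1.

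**Figure D5:**
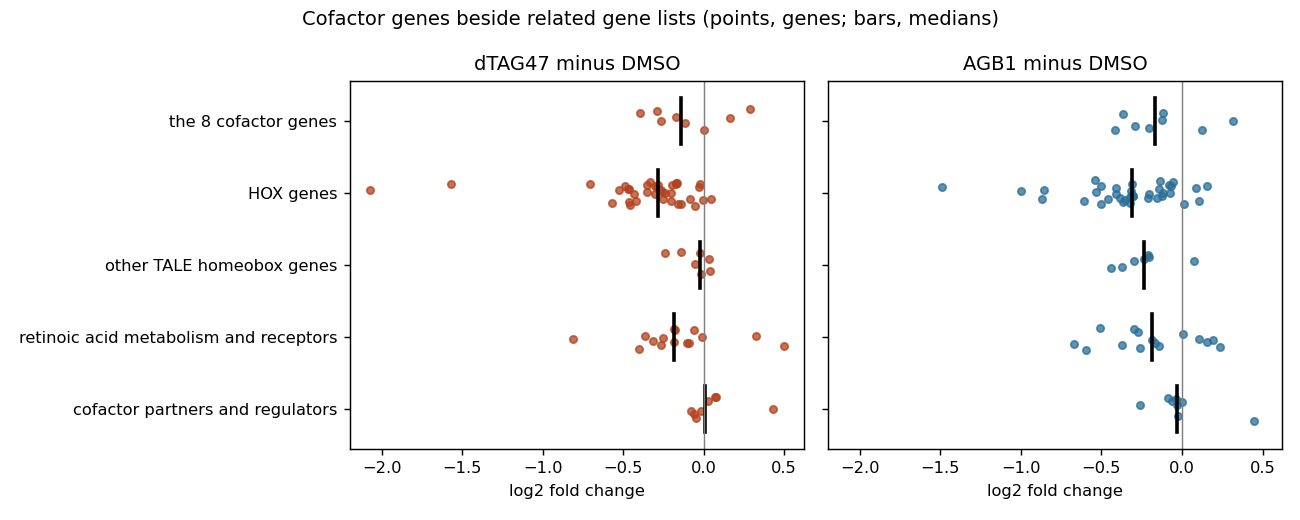
Log2 fold changes against DMSO (horizontal axis) of the genes in 5 lists (points), with the median of each list as a bar, for dTAG47 on the left and AGB1 on the right. The cofactor genes have medians of −0.14 and −0.17, and the HOX genes lie further below 0, at −0.28 and −0.31.

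Across the 9 libraries the members did not all vary together. PBX3 and MEIS2 were the most alike, with a Pearson's r of 0.867 for log2 CPM, followed by PBX2 and MEIS2 (0.754), while PKNOX2 ran against PBX2 (−0.669). The libraries share 3 groups and 1 control, so these values are descriptions without a test. Of 10838 other protein-coding genes at 5 CPM or more, the most like PBX3 were WNT5A (0.967) and CA11 (0.954), the most like PBX2 were PAXBP1 (0.956) and MEX3A (0.953), and the most like MEIS2 were LIG3 (0.973) and ITGB1 (0.946). For MEIS1 they were ACTR10 (0.957) and PCID2 (0.909), and for MEIS3 GMPPA (0.941) and ITGA2B (0.923). For PKNOX1 they were TBC1D15 (0.969) and IPO11 (0.958), and for PKNOX2 FBXL18 (0.943) and DPAGT1 (0.933). These genes were picked as the highest of 10838 correlations over 9 libraries. That choice alone favours high values, so nothing is read from them.

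The members' promoters were searched for the family's own binding motifs. RefSeq promoters (GRCh38.p14, 250 bases before to 50 after a gene's start) were matched by symbol for 7 of the 8 genes, 9 promoters in all. The motifs were TGACAG, bound by MEIS and PKNOX proteins, TGATNNAT, bound by PBX with HOX, and TGATTGAC, bound by PBX with MEIS or PKNOX, each on both strands. TGACAG occurred in 15.8% of all 35116 promoters, TGATNNAT in 7.40% and TGATTGAC in 0.58%. Among the 9 promoters the search gave 1 match to TGACAG, in PBX3 on the minus strand, and 1 to TGATNNAT, in MEIS2. The 100 bases before each RefSeq start are shown with the match in capitals, at chr9:125748083-125748182 (plus strand) for PBX3 and chr15:37098697-37098796 (minus strand) for MEIS2. Both stretches lie inside the gene spans given above, which begin further upstream than these RefSeq starts. A match is a description of the sequence and not a bound site.
PBX3: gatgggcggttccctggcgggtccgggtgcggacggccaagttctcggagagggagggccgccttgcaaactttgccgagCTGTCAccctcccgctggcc
MEIS2: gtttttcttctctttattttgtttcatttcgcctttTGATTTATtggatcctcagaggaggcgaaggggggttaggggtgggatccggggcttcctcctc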

How the data were processed

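Each deposited file gives one library's raw counts by Ensembl gene identifier, per the file headers, as whole numbers with no scaling by the authors. HISAT2, DESeq2 and hg38 appear in the submitters' processing notes; tool versions, the read counter and strandedness were not given in the sources used here. Identifiers, starts, ends and strands matched GENCODE 29 for 58735 of 58735 genes. Groups and replicate numbers come from the sample titles.

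Genes were kept by filterByExpr (18319), scaled by TMM and fitted with edgeR 4.0.16 in R 4.3.3, using a quasi-likelihood model of all 9 libraries with 3 group coefficients. P-values were two-sided and adjusted by Benjamini-Hochberg over all tested genes, with a threshold of 0.05. Intervals are 95% intervals of the fit. CPM uses TMM-scaled library sizes, and CPM per kilobase divides by the gene length in the files. Correlations use log2 CPM with a prior count of 2. Counts carry no molecular identifiers, so count limits cover counting error only. The common biological coefficient of variation was 11.0%.

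The members and gene lists were chosen with earlier results of these data known. The 8 members are always named; for those at 5 CPM or more the 2 most correlated protein-coding genes are named, and list genes past the threshold. PBXIP1 and KLF4 were named after their values were seen. The summed level was given no permutation test, since the members were chosen on these results. Alternatives were DESeq2 1.42.0, limma 3.58.1 (voom), other scalings and filters, the 2 groups alone, restriction to protein-coding genes, replicate number as a block, length and GC trends removed (lowess, span 0.3), each library left out, and, chosen after seeing the data, DMSO 1 and dTAG47 1 left out together, PBX2 summed with its copies, and both compounds against DMSO.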

Additional observations from a re-analysis of the deposited data

How the results depend on the processing

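Of the 760 refitted member fold changes, 722 kept their call and direction, 4 gained a call, 10 lost one and 24 changed sign, none of them called. PBX2, PBX3, MEIS2, MEIS3 and PKNOX1 were negative in 48 of 48 refits against DMSO with dTAG47 or AGB1, and PKNOX2 was positive in 48 of 48. In the first 5 every treated library lay below every DMSO library, so their signs were all but fixed in advance. The same held for PKNOX2 with dTAG47, whose libraries lay above DMSO. For these, the counts are no evidence of stability. MEIS1 with dTAG47, close to 0 in the reported fit, was positive with limma-voom (0.018), with no count filter (0.0015), under the replicate block (0.0049), with the length trend removed (0.0062), with the GC trend removed (0.023) and with block and GC trend together (0.031). With libraries left out it spanned −0.11 to 0.15, and it spanned −0.22 to 0.037 with AGB1 and −0.16 to 0.094 with both compounds. PBX4 with dTAG47 spanned −0.048 (without DMSO 1 and dTAG47 1 together) to 0.66. Between the compounds PKNOX1 was −0.0034 with the length trend removed, and with libraries left out the differences spanned −0.043 to 0.099 for PKNOX1, −0.0067 to 0.17 for MEIS3, −0.085 to 0.075 for PBX3, −0.19 to 0.24 for PBX4, −0.039 to 0.095 for MEIS2, −0.0017 to 0.071 for PBX2 and −0.016 to 0.11 for PKNOX2. The member count with dTAG47 was 1 (PBX3) with DESeq2 and 0 otherwise. With AGB1 it was 1 (PBX3) with DESeq2, with no count filter and with the GC trend removed, and 0 otherwise. With both compounds it was 0 under the replicate block (PBX3 adjusted p = 0.0584) and 0 to 1 with libraries left out.

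Over all genes, edgeR called 11 with dTAG47, against 47 by DESeq2, 43 with no count filter, 4 from the 2 groups alone, 22 with the GC trend removed, and 2 to 20 with libraries left out. It called 19 with AGB1, against 81 by DESeq2, 67 with no count filter, 48 with the GC trend removed, 51 with the replicate block and the GC trend removed, and 6 to 55 with libraries left out. Between the compounds it called 0, against 13 with no count filter and 0 to 2 with libraries left out. With both compounds it called 34, against 130 by DESeq2, 110 with no count filter, 83 with the GC trend removed, 76 with the replicate block and the GC trend removed, and 17 to 81 with libraries left out. The causes were not tested.

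Same-numbered libraries of different groups had correlated deviations between −0.156 and 0.0716, and a library correlated best with its own number in 3 of 18 cases, so the numbers were not taken as pairs. The replicate block gave 10 genes with dTAG47, 17 with AGB1 and 0 between the compounds, and changed no other member call. Among list genes it ended the calls of HOXB3 and HOXC9 given above, and that of ALDH1A2 with dTAG47. The summed level of the 8 genes was lower with each compound in all 11 alternatives run. In the reported scaling the treated libraries, at most 197 CPM, already lay below DMSO, at 214 CPM or more. That direction was thus all but fixed in advance. PBX4 had the fewest counts, 68 to 192 per library, and a biological coefficient of variation of 23.0%.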
